A study of Rattus norvegicus with 20 samples.

Results

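The lysosomal cathepsins on this array are 7 protease genes, Ctsb, Ctsc, Ctsd, Ctsh, Ctsk, Ctsl and Ctss. They were taken as every probe set whose only gene symbol in the platform annotation is 1 of these names. The 7 genes are among 4737 that a probe set names alone. They have 10 of the 8799 probe sets on the array, of which 7018 carry a single gene symbol. Ctsc, Ctsd and Ctsl have 2 probe sets each and the other genes 1. All 10 passed the filter on dim signals, and 8 of them lay above the 40th percentile of the array in all 20 arrays. The Ctsc probe sets fell below it in 2 arrays (D90404_at) and 1 array (D90404_g_at).

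The arrays measured poly(A) RNA of rear-leg skeletal muscle from rats, 1 array per sample and 5 per group. The groups were diabetic rats given vanadyl sulfate, untreated diabetic rats, normal rats given vanadyl sulfate and untreated normal rats. Vanadyl sulfate is a vanadium salt with insulin-like actions. The sources used here do not say what strain, sex or age the rats were, how they became diabetic, which leg muscle was taken, or how much vanadyl sulfate they got and for how long. Whether each replicate is an animal of its own is not stated either, so p-values measure the spread between these samples, which may be technical.

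Cathepsins are proteases that are made as inactive precursors, sorted to lysosomes and activated there by the acid pH. Cathepsins B, C, H, K, L and S are cysteine proteases of the papain family, and cathepsin D is an aspartic protease. In muscle fibres they degrade proteins and organelles that autophagy brings to the lysosome, next to the ubiquitin-proteasome pathway, and Ctsl mRNA is a known marker of muscle wasting in rodents. Macrophages express many of them at high levels, and cathepsin S there trims the invariant chain of MHC class II molecules.

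Median signals of the arrays were 377 to 648. Of the skeletal muscle markers, the creatine kinase gene Ckm was above the 99.9 percentile in all 20 arrays. The markers Chrna1 and Myog fell to percentiles of 45.6 and 51.8 in their dimmest arrays. The ratio of 3' to 5' signal of the Gapdh control probe sets, a sign of RNA quality, was high in 3 arrays. On the log2 scale it was 3.94 in treated diabetic replicate 1, 2.90 in normal replicate 1 and 2.91 in normal replicate 3, and at most 1.31 in the others. Fibroblast markers (11 genes tested) had no member past the threshold in any comparison. Macrophage and leukocyte markers did, and are given beside the results for Ctss.

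Ctss was the only cathepsin probe set that passed the test in any comparison. Cathepsin S (L03201_at) had signals of 14275, 6347, 13175, 7045 and 8500.3 in diabetic replicates 1 to 5, against 6254, 3183, 2688, 1502 and 1621 in normal replicates 1 to 5. Every diabetic array lay above every normal array, with diabetic replicates 1 and 3 the highest and normal replicates 4 and 5 the lowest. Its mean log2 signal was 13.19 ± 0.53 in diabetic and 11.38 ± 0.83 in normal muscle (SD, n = 5 each), which is 3.51-fold higher in diabetic muscle (log2 difference 1.81 ± 0.36, SE, limma adjusted p = 0.0142). Over all probe sets tested, 1.26% passed as higher in this comparison, and 3.33% had diabetic arrays that all lay above the normal ones.

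Some macrophage and leukocyte markers rose in the same comparison. Of the 32 genes listed, 13 were on the array and 11 were tested, and 5 of these rose in diabetic muscle (Fcgr2b, Lgals3, Lyz2, Coro1a and Cd53), with 0 lower and 6 not past the test. Over all genes tested, 1.34% rose. The median log2 difference of the 11 was 1.55, beside -0.04 over all genes. The 5 that rose had log2 differences from 1.49 (the galectin Lgals3) to 3.38 (the actin-binding Coro1a), with adjusted p-values from 0.00374 to 0.0462. Coro1a averaged 2436 in diabetic but 106 in normal muscle, and its median percentile over all arrays was 19.9, below the filter on dim signals. That filter asked for only 5 brighter arrays, as many as a group holds. The size of the Coro1a difference thus rests on dim normal signals and is uncertain. Fcgr2b and Cd53 were also dim in normal muscle, averaging 246 and 317, with median percentiles of 44.4 and 44.2 over all arrays. The lysozyme gene Lyz2 averaged 20182 in diabetic and 3168 in normal muscle. The summed signal of the 11 genes ran from 21383 to 71451 in diabetic and from 9579 to 15127 in normal muscle. It was 71451 and 70793 in diabetic replicates 1 and 3, the arrays with the highest Ctss, and at most 32268 in the other diabetic arrays. Replicates 1 and 3 also had the highest log2 3'/5' ratios of the diabetic group. These were 0.90 and 1.11 by Gapdh and 2.30 and 2.52 by beta-actin, and at most 0.51 and 1.97 in the other diabetic arrays. No listed marker was at 0, although Itgam and Csf1r were too dim to be tested. In whole muscle, more cells of a type and more RNA per cell cannot be told apart.

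With the mean log2 level of these 11 markers added to the fit as a covariate, the Ctss difference was 1.12 ± 0.55 (SE) with an adjusted p of 0.665, and without diabetic replicates 1 and 3 it was 1.45 ± 0.40 with an adjusted p of 0.254. Both settings were chosen after the data were seen. The marker level did not overlap between the groups (9.81 to 11.52 in diabetic and 8.93 to 9.59 in normal arrays). The covariate fit therefore cannot separate the marker level from the group difference. With any 1 of the 20 arrays left out, the log2 difference stayed between 1.61 and 2.12 and its adjusted p between 0.00267 and 0.0585. The call was lost without diabetic replicate 1 (adjusted p = 0.0585) and without diabetic replicate 3 (adjusted p = 0.0514), with both 3'/5' ratios as covariates (1.57, adjusted p = 0.0571) and when only the diabetic and normal arrays were fitted (adjusted p = 0.0571). Over the settings other than leaving out 1 array, its adjusted p ran from 0.00277 to 0.665.

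**Figure D1:**
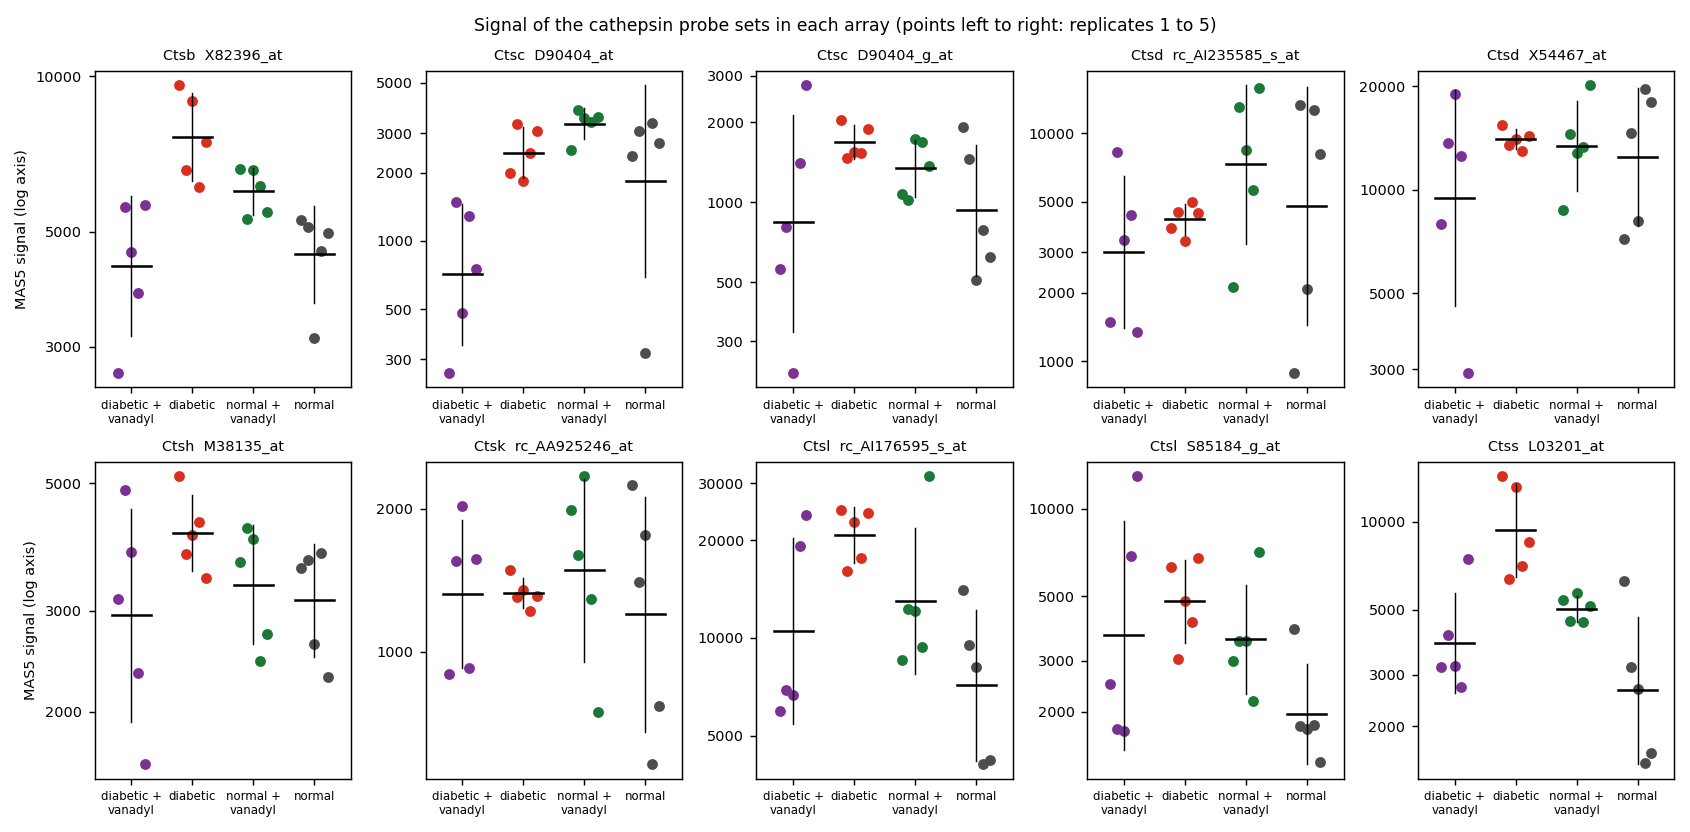
Signal of each cathepsin probe set in every array, on log axes, by group. Points are replicates 1 to 5 from left to right, horizontal lines the mean on the log2 scale and vertical lines 1 SD on either side. Ctss is the panel in which the diabetic arrays (6347 to 14275) all lie above the normal arrays (1502 to 6254) and the difference passes the test.

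The promoter of Ctss is printed with those of Ctsl, the member next in size of difference, and Ctsd, whose difference was near 0. Each is 250 bases before to 50 after the gene's start, from RefSeq on the GRCr8 build, found for 6 of the 7 genes (Ctsb had none). Capitals mark 2 motifs, searched on both strands. They are CACGTG, the core of the element bound by the lysosomal regulator TFEB, and GAGGAAGT, a site of the myeloid factor PU.1. No match of one overlaps a match of the other, and the motifs were chosen with these sequences and the results known.
Ctss (chr2:185775146-185775445, plus strand): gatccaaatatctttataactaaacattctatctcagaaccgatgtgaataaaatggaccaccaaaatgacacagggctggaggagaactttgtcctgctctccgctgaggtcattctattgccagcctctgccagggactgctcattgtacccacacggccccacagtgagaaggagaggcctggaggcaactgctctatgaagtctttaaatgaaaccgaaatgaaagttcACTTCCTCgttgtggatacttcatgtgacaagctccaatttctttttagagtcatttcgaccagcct
Ctsl (chr17:769854-770153, plus strand): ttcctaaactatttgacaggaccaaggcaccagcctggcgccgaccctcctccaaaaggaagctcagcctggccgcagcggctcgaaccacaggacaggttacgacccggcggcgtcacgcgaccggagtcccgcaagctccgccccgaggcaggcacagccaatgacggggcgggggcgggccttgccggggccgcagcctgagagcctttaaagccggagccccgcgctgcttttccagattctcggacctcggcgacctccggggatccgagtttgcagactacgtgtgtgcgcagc
Ctsd (chr1:206968772-206969071, minus strand): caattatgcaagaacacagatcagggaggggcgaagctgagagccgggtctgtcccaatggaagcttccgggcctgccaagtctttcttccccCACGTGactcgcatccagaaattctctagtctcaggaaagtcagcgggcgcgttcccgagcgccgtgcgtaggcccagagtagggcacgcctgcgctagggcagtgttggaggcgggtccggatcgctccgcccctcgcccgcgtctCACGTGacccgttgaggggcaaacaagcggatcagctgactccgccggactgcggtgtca
The letters GAGGAAGT occur on the reverse strand of the Ctss window, with the first base at position -17 from the start, and in that of Ctsc at -248. They occur in 2.42% of all 33469 promoters of this length. CACGTG occurs in the Ctsd window alone of the 6, at -157 and -10, and in 6.42% of all promoters. A match describes these letters only, and their absence from the Ctsl window says nothing of either factor.

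Cathepsin L, an endopeptidase, had higher signals in every diabetic array by its brighter probe set, without passing the test. The probe set rc_AI176595_s_at read 24878, 16089, 22719, 17604 and 24343 in diabetic and 14087, 9513, 8122, 4080.4 and 4196 in normal replicates 1 to 5. The lowest diabetic value lay above the highest normal one, that of normal replicate 1. The log2 difference was 1.54 ± 0.44 (SE, 95% interval 0.62 to 2.46, limma adjusted p = 0.0786), a 2.91-fold difference of the means on the log2 scale. The other probe set, S85184_g_at, gave 6312, 3042, 4816, 4078 and 6759 in diabetic and 3873, 1789.5, 1750, 1805 and 1349.8 in normal muscle. Here diabetic replicate 2 lay below normal replicate 1, so the groups overlapped. The log2 difference was 1.28 ± 0.48 (SE, 95% interval 0.27 to 2.28, adjusted p = 0.173).

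Whether Ctsl passed depended on the arrays fitted. For rc_AI176595_s_at it passed without normal replicate 1 (1.78, adjusted p = 0.0329), without treated diabetic replicate 5 (1.54, adjusted p = 0.0489) and with the 3 high-Gapdh-ratio arrays left out (1.93, adjusted p = 0.0244). Over all settings its adjusted p ran from 0.0244 to 0.557. Normal replicate 1, 1 of the 3 arrays of high Gapdh ratio, had the highest Ctsl of its group by both probe sets.

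Cathepsin B, which acts both as an endopeptidase and as an exopeptidase that trims chain ends, was also higher in every diabetic array without passing the test. X82396_at read 9622, 6582, 8963, 6104 and 7453 in diabetic and 5271, 5108, 3111, 4591 and 4967 in normal replicates 1 to 5. Diabetic replicates 1 and 3 were again the highest, and normal replicate 3 the lowest. The log2 difference was 0.75 ± 0.23 (SE, 95% interval 0.26 to 1.24, limma adjusted p = 0.104), a 1.68-fold difference. Its adjusted p was between 0.0677 and 0.826 in all settings tried.

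Cathepsin C, also called dipeptidyl peptidase I, activates granule proteases of leukocytes. Its D90404_at read 1991, 3279.6, 1838, 2448 and 3069 in diabetic and 2378, 3069, 319, 3311 and 2726 in normal muscle, where normal replicate 3 was far below the rest. The groups overlapped (log2 difference 0.41 ± 0.52, SE, adjusted p = 0.733), and the sign turned to -0.21 without normal replicate 3. D90404_g_at read 2044, 1472, 1549, 1536 and 1889.7 in diabetic and 1927, 1459, 512, 784 and 620.4 in normal muscle, with a difference of 0.84 ± 0.48 (adjusted p = 0.383). Here normal replicate 1 lay among the diabetic values and the other normal arrays below all of them.

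The remaining cysteine cathepsins, H and K, did not pass the test between diabetic and normal muscle. Cathepsin H, an aminopeptidase, read 5138, 3760.5, 4065, 4282 and 3421 by M38135_at in diabetic and 3552, 3672, 2628, 3776 and 2296 in normal muscle (log2 difference 0.39 ± 0.27, SE, 95% interval -0.18 to 0.96, adjusted p = 0.484). The groups overlapped, with diabetic replicate 1 the highest array of both. Cathepsin K, a collagenase best known from osteoclasts, read 1483, 1302, 1349, 1216 and 1312 by rc_AA925246_at in diabetic and 2248, 1401, 1759, 579.7 and 769 in normal muscle. Its diabetic values lay close together inside a normal range that was wider (0.15 ± 0.36, SE, 95% interval -0.60 to 0.89, adjusted p = 0.877).

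Cathepsin D, the aspartic protease of the set, had differences near 0. X54467_at read 15405, 13506, 14078, 12971 and 14355 in diabetic and 7192, 14601, 8099.5, 19606 and 18043 in normal muscle (0.17 ± 0.40, SE, 95% interval -0.66 to 1.01, adjusted p = 0.872). rc_AI235585_s_at read 3829, 4494, 3359, 5012 and 4491 in diabetic and 889, 13363, 2069, 12724 and 8087 in normal muscle (-0.19 ± 0.68, SE, 95% interval -1.62 to 1.23, adjusted p = 0.919). The 5 normal arrays spanned a 15.0-fold range for the second probe set, and the low values were those of normal replicates 1 and 3, both of high Gapdh ratio. The other normal arrays lay above all diabetic arrays for this probe set. With the 3 high-Gapdh-ratio arrays left out, the differences were -0.30 (X54467_at) and -1.40 (rc_AI235585_s_at). Neither probe set passed the test in any setting.

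Across the 10 probe sets, 1 rose, 0 fell and 9 did not pass the test in diabetic against normal muscle. Over all probe sets, 1.26% rose and 0.564% fell. Of the 10 differences 9 were positive, with a median of 0.58 beside -0.06 over all probe sets. There were 8 positive with the Gapdh ratio or both ratios as covariates, 7 without the 3 arrays of highest Gapdh ratio and 6 with the macrophage marker level as a covariate. With both ratios the median was 0.36. An unadjusted p under 0.05 was reached by 4 of 10, beside 16.7% of all probe sets. The diabetic arrays lay above all normal arrays for 3 (Ctsb, Ctsl by rc_AI176595_s_at, and Ctss), beside 3.33% of all.

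In vanadyl-treated diabetic muscle, no cathepsin passed the test against untreated diabetic muscle, and all 10 log2 differences were negative. The untreated diabetic arrays are the same as those set against normal muscle above, so a low or high diabetic value enters both. Ctss read 3189, 4115, 3214, 2731 and 7424 in treated diabetic replicates 1 to 5, against the 6347 to 14275 of untreated diabetic muscle. Treated replicate 5 reached into the untreated range and the other 4 lay below it. The log2 difference was -1.27 ± 0.36 (SE, 95% interval -2.02 to -0.53, limma adjusted p = 0.118), 2.42-fold lower. Ctsb read 2669, 5597, 4577, 3804 and 5636 in treated diabetic muscle, every array below the lowest untreated diabetic one at 6104 (-0.83 ± 0.23, SE, adjusted p = 0.118).

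For Ctsc the 2 probe sets differed in how far treated diabetic muscle lay from untreated diabetic muscle. D90404_at read 261, 1487, 478, 1293 and 754 in treated diabetic muscle, all below the lowest untreated diabetic value of 1838 (-1.76 ± 0.52, SE, adjusted p = 0.122). It passed without normal replicate 3 (-1.76, adjusted p = 0.0236) and with the 3 high-Gapdh-ratio arrays left out (-1.41, adjusted p = 0.041). Its adjusted p over all settings ran from 0.0236 to 0.511. D90404_g_at read 562, 808, 228, 1408 and 2762, with treated replicate 5 above all untreated diabetic arrays and treated replicate 3 at the other end (-0.99 ± 0.48, SE, adjusted p = 0.309).

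Ctsl split the treated diabetic arrays. By rc_AI176595_s_at, treated diabetic replicates 1 to 5 read 5968, 6912, 6685, 19233 and 23939.6, and by S85184_g_at 2488, 1746, 1718, 6891 and 12942. Replicates 4 and 5 lay within the untreated diabetic range by the first probe set and above it by the second, and replicates 1, 2 and 3 below all untreated diabetic arrays. The log2 differences between treated and untreated diabetic muscle were -0.99 ± 0.44 (adjusted p = 0.27) and -0.38 ± 0.48 (adjusted p = 0.715; SE). Ctsh (-0.47 ± 0.27), Ctsd (-0.57 ± 0.40 and -0.47 ± 0.68) and Ctsk (-0.0042 ± 0.36) had adjusted p-values between 0.388 and 0.996. Ctsh read 1620 to 4866 in treated diabetic and 3421 to 5138 in untreated diabetic muscle. Ctsk read 899 to 2025 in treated diabetic and 1216 to 1483 in untreated diabetic muscle, and Ctsd by X54467_at 2931 to 18937 in treated diabetic and 12971 to 15405 in untreated diabetic muscle. In each of these the treated arrays had the wider range and the lower minimum.

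In this comparison 0 of 10 cathepsin probe sets passed limma's test, beside 0.498% of all probe sets, and 4 of 10 had an unadjusted p under 0.05, beside 16.3%. The median of the 10 differences was -0.70, beside 0.08 over all probe sets, of which 43.9% were negative. With quantile normalization 9 of the 10 were negative and Ctsk turned positive, and with the macrophage marker level as a covariate 8 were negative. Of the 15 skeletal muscle markers 10 were positive (median 0.61, 0 past the test). The treated diabetic arrays lay below all untreated diabetic arrays for Ctsb and for Ctsc by D90404_at (2 of 10, beside 2.07%). Of the 11 macrophage and leukocyte markers 2 fell (Lyz2 and Fcgr2b, beside 0.558% of all genes) and 0 rose, with a median of -1.32. Their summed signals were 9804 to 18019 in treated diabetic muscle against 21383 to 71451 in untreated diabetic muscle. Their part in the cathepsin differences was not tested. In the limma fit with the marker level as a covariate, the treated against untreated Ctss difference was -0.63 (adjusted p = 0.821). That level overlapped little between the groups (8.93 to 9.85 in treated and 9.81 to 11.52 in untreated diabetic arrays), so this fit cannot separate the 2.

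**Figure D2:**
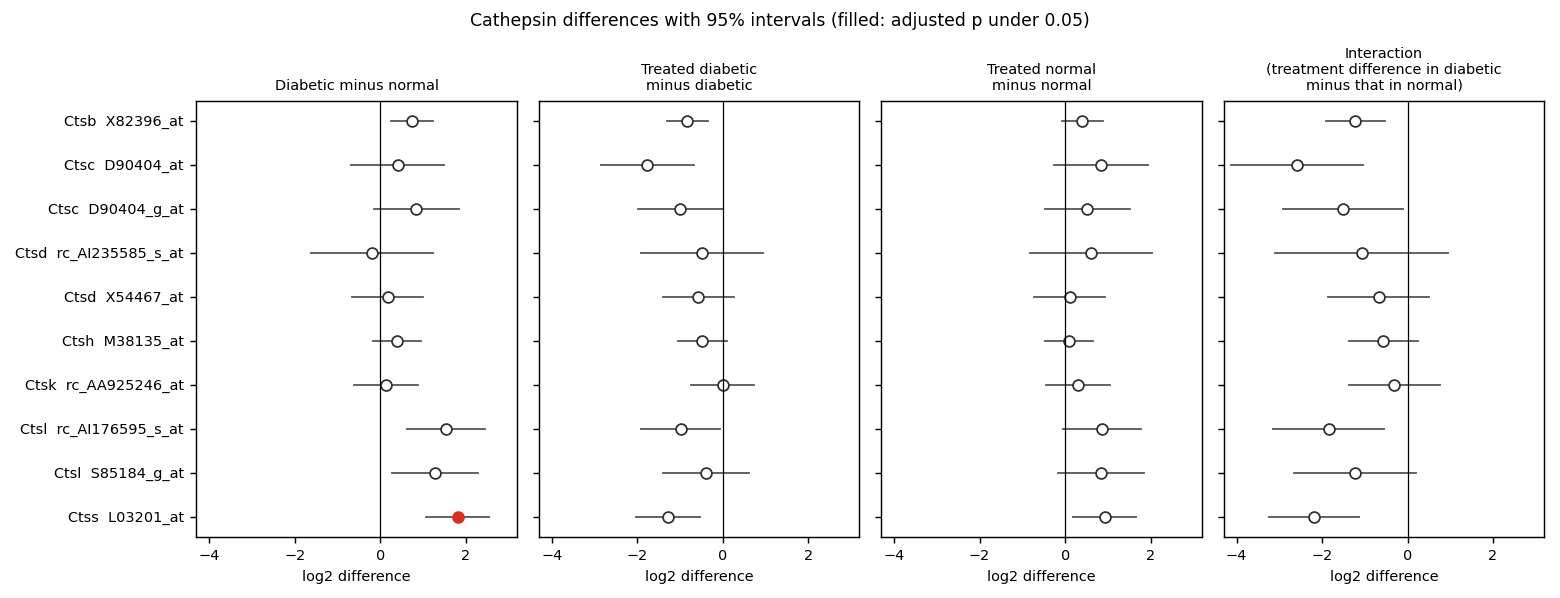
Log2 differences of the 10 probe sets in 4 comparisons, with 95% intervals from limma, where a filled point marks an adjusted p under 0.05. The filled point is Ctss in diabetic minus normal muscle (1.81). All 10 points lie below 0 in treated diabetic minus diabetic muscle and in the interaction, and above 0 in treated normal minus normal muscle.

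In normal rats, vanadyl treatment went with positive differences of all 10 probe sets, none past the test. Ctss read 5392, 4560.3, 5697, 4534 and 5138 in treated normal muscle and 1502 to 6254 in untreated normal muscle, where replicate 1 lay above all treated arrays. The log2 difference was 0.92 ± 0.36 (SE, 95% interval 0.18 to 1.67, limma adjusted p = 0.489). Ctsb read 6631, 5302, 6592, 6129 and 5462 in treated normal muscle, above the highest untreated normal value of 5271 in all 5 arrays, by a small margin (0.40 ± 0.23, SE, adjusted p = 0.604). Ctsb was the only 1 of the 10 with such groups, beside 1.31% of all probe sets. Ctsl read 8578, 12251, 12076, 9382 and 31493 by rc_AI176595_s_at, with treated normal replicate 5 the highest of all 20 arrays (0.86 ± 0.44, SE, adjusted p = 0.555). S85184_g_at also had its highest treated normal value in replicate 5 (2985, 3497, 3512, 2176 and 7116; 0.85 ± 0.48, SE, adjusted p = 0.602). Ctsc read 2521, 3778, 3503, 3352 and 3536 by D90404_at (0.83 ± 0.52, SE, adjusted p = 0.615) and 1071, 1023, 1729, 1679 and 1366 by D90404_g_at (0.52 ± 0.48, SE, adjusted p = 0.746), and each overlapped untreated normal muscle. Without normal replicate 3 the D90404_at difference was 0.21 (adjusted p = 0.891). Ctsh, Ctsk and Ctsd had differences of 0.09, 0.30, 0.10 (X54467_at) and 0.60 (rc_AI235585_s_at), with adjusted p-values from 0.8 to 0.951. With the 3 high-Gapdh-ratio arrays left out, the Ctsd differences were -0.37 (X54467_at) and -0.60 (rc_AI235585_s_at), and 8 of the 10 differences were positive. The median of the 10 differences was 0.56, beside 0.18 over all probe sets, of which 66.7% were positive. Limma called 0 of 10, beside 0.0664% of all probe sets, and 1 of 10 (Ctss) had an unadjusted p under 0.05, beside 9.23%. With quantile normalization 9 of the 10 were positive and Ctsh turned negative. With the Gapdh ratio as a covariate 8 of 10 were positive, with both ratios 8 of 10 with a median of 0.22, and without normal replicate 3 9 of 10 with a median of 0.30. In the same comparison 13 of 15 skeletal muscle markers had negative differences (median -0.60) and 9 of 11 macrophage and leukocyte markers positive ones (median 0.41), beside 0.17 over all genes, and 0 of either list passed the test. The part of either list in the cathepsin differences was not tested. With the macrophage marker level as a covariate 9 of 10 cathepsin differences were positive.

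For all 10 probe sets the treatment difference was lower in diabetic than in normal rats, and the test of this interaction called none of them. For Ctss the interaction, the log2 treatment difference in diabetic minus that in normal muscle, was -2.20 ± 0.50 (SE, 95% interval -3.25 to -1.15, limma adjusted p = 0.0962). It passed without normal replicate 1 (-2.51, adjusted p = 0.0411) and without treated diabetic replicate 5 (-2.43, adjusted p = 0.0451), and its adjusted p over all settings ran from 0.0411 to 0.516. The interaction was -2.60 ± 0.74 for Ctsc by D90404_at (adjusted p = 0.147), -1.85 ± 0.62 for Ctsl by rc_AI176595_s_at (adjusted p = 0.193) and -1.23 ± 0.33 for Ctsb (adjusted p = 0.126; SE). Limma called 0 of 10, beside 0.166% of all probe sets, and 5 of 10 had an unadjusted p under 0.05, beside 13.3%. The median was -1.23, beside -0.13 over all probe sets, of which 57.8% were negative. All 10 were negative with quantile normalization too, 9 with the Gapdh ratio or both ratios as covariates or without the 3 arrays of highest ratio, and 8 with the macrophage marker level as a covariate. In the same contrast 10 of 11 macrophage and leukocyte markers were negative (1 fell, median -1.87) and 10 of 15 skeletal muscle markers positive (0 past the test, median 0.96), beside -0.10 over all genes. The interaction shares its arrays with the comparisons above, so their signs are not separate evidence, and probe sets of 1 gene share their target.

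Treated diabetic muscle was also set against each normal group. Against untreated normal muscle, 4 of 10 differences were positive and 6 negative (median -0.08; 3 to 6 positive with 1 array left out), and 0 passed, as for all probe sets (0%). There 1 of 10, Ctsc by D90404_at, had an unadjusted p under 0.05, beside 12.8% of all. The Ctss difference was 0.54 ± 0.36 (SE, 95% interval -0.20 to 1.28, adjusted p = 0.515) and that of Ctsb -0.08 ± 0.23 (adjusted p = 0.903). Against treated normal muscle, 9 of 10 differences were negative with a median of -0.43 (7 negative with quantile normalization and a median of -0.34), and 0 passed (0% of all probe sets), with 1 of 10 at an unadjusted p under 0.05, beside 17.9%. The widest was Ctsc by D90404_at, whose treated diabetic values of 261 to 1487 all lay below the 2521 to 3778 of treated normal muscle (-2.19 ± 0.52, SE, adjusted p = 0.13). It was the only 1 of the 10 with such groups, beside 2.01% of all probe sets. It passed without normal replicate 3 (-2.19, adjusted p = 0.0213), without treated diabetic replicate 2 (-2.45, adjusted p = 0.0375), with the 3 high-Gapdh-ratio arrays left out (-1.84, adjusted p = 0.0475) and with the replicate number as a block (-2.19, adjusted p = 0.0495). By D90404_g_at the same comparison gave -0.67 ± 0.48 (adjusted p = 0.479).

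Over the 4 groups, the order of mean log2 signals of Ctss was diabetic (13.19 ± 0.53), treated normal (12.30 ± 0.15), treated diabetic (11.92 ± 0.57) and normal (11.38 ± 0.83; SD, n = 5 each). Treated diabetic muscle did not differ beyond the spread from either treated normal or normal muscle, and diabetic against treated normal muscle was not tested. For Ctsl by rc_AI176595_s_at the order was the same, with 14.35 ± 0.29, 13.67 ± 0.75, 13.36 ± 0.95 and 12.81 ± 0.77. By S85184_g_at the order was another one: diabetic (12.23 ± 0.47), treated diabetic (11.85 ± 1.30), treated normal (11.80 ± 0.62) and normal (10.96 ± 0.57). For Ctsb it was diabetic (12.90 ± 0.28), treated normal (12.55 ± 0.15), normal (12.15 ± 0.31) and treated diabetic (12.07 ± 0.45). For Ctsd by X54467_at it was diabetic (13.78 ± 0.09), treated normal (13.71 ± 0.43), normal (13.61 ± 0.67) and treated diabetic (13.21 ± 1.04). Here normal muscle did not differ beyond the spread from treated normal or treated diabetic muscle. By rc_AI235585_s_at the Ctsd order was treated normal (12.84 ± 1.15), normal (12.24 ± 1.73), diabetic (12.04 ± 0.23) and treated diabetic (11.57 ± 1.10).

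Probe sets of the same gene followed each other to unlike degrees across the 20 arrays. The Ctsl pair had Pearson r = 0.89 and Spearman rho = 0.90, and both permutation p-values were 1e-05, which is as small as the resampling allows (adjusted p = 3e-05 over 3 pairs). The Ctsd pair had r = 0.76 (permutation p = 6e-05, adjusted p = 9e-05) and rho = 0.69 (permutation p = 0.00121, adjusted p = 0.00182). The Ctsc pair, which share the sequence accession D90404, had r = 0.53 (permutation p = 0.0159, adjusted p = 0.0159) but rho = 0.22 (permutation p = 0.356, adjusted p = 0.356), and r fell to 0.34 without the 2 arrays farthest from the median. Without such arrays r was 0.88 for Ctsl and 0.71 for Ctsd. After group means were removed, r was 0.89 for Ctsl, 0.76 for Ctsd and 0.43 for Ctsc.

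**Figure D3:**
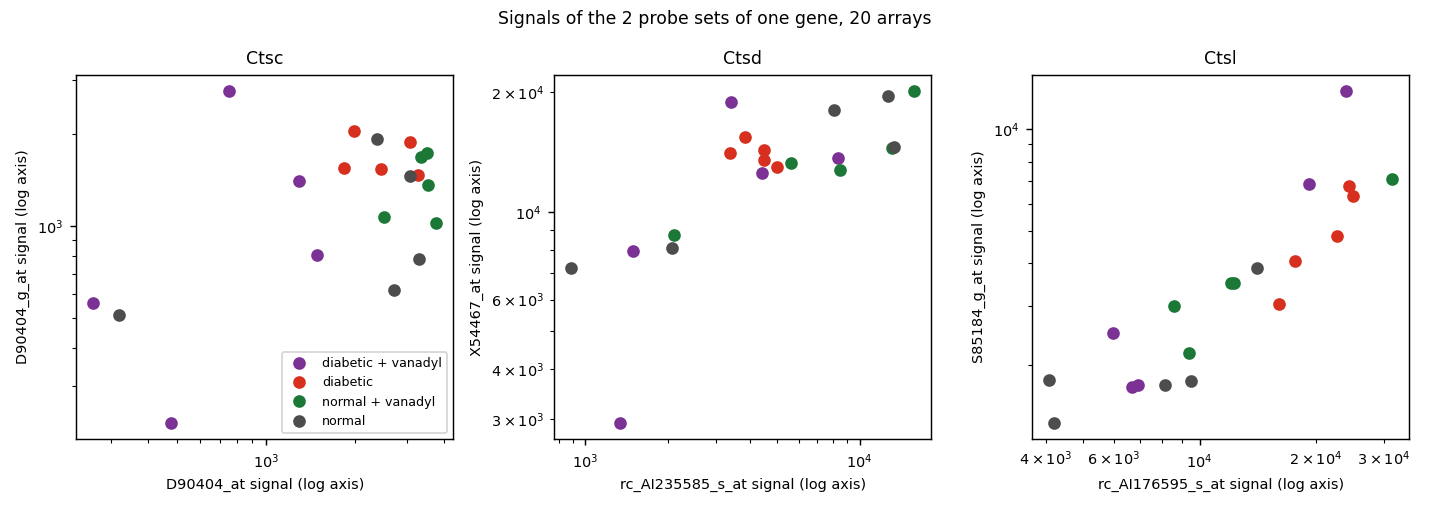
Signals of the 2 probe sets of Ctsc, Ctsd and Ctsl against each other in 20 arrays, coloured by group, with log axes. The Ctsl points follow 1 rising band (r = 0.89), the Ctsd points a looser one (r = 0.76), and the Ctsc points scatter (r = 0.53).

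Signs of RNA quality moved with several cathepsins. Against the log2 of the 3' over the 5' signal of beta-actin control probe sets, Ctsd by rc_AI235585_s_at had r = -0.85 (permutation p = 1e-05, adjusted p = 1e-04 over 10 probe sets) and rho = -0.85 (permutation p = 2e-05, adjusted p = 2e-04). With the 2 most extreme ratios left out this r was -0.77, and it was -0.83 after group means were removed. Ctsd by X54467_at had r = -0.52 (permutation p = 0.0119, adjusted p = 0.0597) and rho = -0.54 (permutation p = 0.0146, adjusted p = 0.0485), and r was -0.41 without the 2 farthest arrays. Ctsc by D90404_at had r = -0.48 (permutation p = 0.0323, adjusted p = 0.108) and rho = -0.68 (permutation p = 0.00135, adjusted p = 0.00675). For the other 7 probe sets r lay between -0.12 and 0.41, with adjusted p-values from 0.151 to 0.952. Ctss had r = 0.41 (permutation p = 0.0708, adjusted p = 0.151) and rho = 0.35 (permutation p = 0.133, adjusted p = 0.265), and its r was 0.51 without the 2 farthest arrays and 0.59 after group means were removed. The mean beta-actin ratio was 1.97 ± 0.59 in treated diabetic, 1.75 ± 0.73 in diabetic, 1.07 ± 0.68 in treated normal and 1.30 ± 1.07 in normal muscle (SD, n = 5 each).

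By the Gapdh ratio 3 arrays stood apart, so the relation was taken over the other 17 (10 probe sets compared). Ctsd by rc_AI235585_s_at had r = -0.88 and rho = -0.96 (both permutation p = 1e-05, adjusted p = 1e-04), and r was -0.83 without the 2 farthest arrays. Ctsc by D90404_at had r = -0.75 (permutation p = 0.00101, adjusted p = 0.00505) and rho = -0.76 (permutation p = 0.00066, adjusted p = 0.0033), and r was -0.71 without the 2 farthest. Ctss had r = 0.50 (permutation p = 0.0408, adjusted p = 0.102) and rho = 0.47 (permutation p = 0.0618, adjusted p = 0.206), with r = 0.34 without the 2 farthest and 0.54 after group means were removed. For the other 7 probe sets the adjusted p was between 0.0892 and 0.794. Of the 3 arrays apart, treated diabetic replicate 1 and normal replicate 3 had the lowest values of all 20 for Ctsb (2669 and 3111) and for Ctsc by D90404_at (261 and 319), whereas normal replicate 1 did not (5271 and 2378). The part of RNA quality in the differences between groups was not tested beyond the fits with the ratios as covariates and without these arrays.

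Several cathepsins also ran opposite to the mean log2 level of the 15 skeletal muscle markers over the 20 arrays (10 probe sets compared). For Ctsl r was -0.60 by rc_AI176595_s_at (permutation p = 0.00481, adjusted p = 0.012) and -0.58 by S85184_g_at (permutation p = 0.00694, adjusted p = 0.0139), with rho = -0.65 (permutation p = 0.00263, adjusted p = 0.00877) and -0.67 (permutation p = 0.0017, adjusted p = 0.0085). For Ctss r was -0.51 (permutation p = 0.0207, adjusted p = 0.0345) and rho -0.56 (permutation p = 0.0116, adjusted p = 0.0291). Ctsc by D90404_g_at had r = -0.79 (permutation p = 7e-05, adjusted p = 7e-04) and rho = -0.73 (permutation p = 0.00049, adjusted p = 0.0049). Without the 2 farthest arrays r was -0.61, -0.60, -0.49 and -0.78 for these 4 probe sets, in the same order. Ctsb had r = -0.65 (permutation p = 0.00252, adjusted p = 0.0084) and rho = -0.47 (permutation p = 0.0405, adjusted p = 0.0708), and Ctsc by D90404_at r = -0.71 (permutation p = 0.00128, adjusted p = 0.0064) and rho = -0.46 (permutation p = 0.0425, adjusted p = 0.0708), but r was -0.26 and -0.33 without the 2 farthest arrays and so rests on them. For Ctsd, Ctsh and Ctsk the adjusted p of r was between 0.498 and 0.943. The marker level ran from 14.81 to 15.99 in treated diabetic, 14.99 to 15.34 in diabetic, 14.89 to 15.19 in treated normal and 14.95 to 16.18 in normal muscle. The levels of 15.99 and 16.18 were those of treated diabetic replicate 1 and normal replicate 3. Both arrays have a high Gapdh ratio and the lowest values for Ctsb and Ctsc by D90404_at, so the 2 relations share these arrays.

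Among the cathepsins themselves, Ctsl and Ctss varied most alike over the 20 arrays (r = 0.79, and 0.61 after group means were removed), followed by Ctsb and Ctss (0.76 and 0.51). After group means were removed the highest r was that of Ctsk and Ctss (0.62, and 0.45 before). Ctsd and Ctss went apart once group means were removed (r = -0.61, and -0.21 before). These are descriptions over arrays that share groups and scaling. The named genes most like each cathepsin were sought over 3582 genes. For Ctss they were the Golgi mannosidase Man1a1 (r = 0.89), the class II gene RT1-Da (0.87) and the transcription inhibitor Id2 (0.87), with 0.84, 0.75 and 0.90 after group means were removed. For Ctsl they were the sulfotransferase Sult1a1 (0.90), the growth arrest transcript Gas5 (0.90) and the phosphodiesterase Pde4d (0.89), and after group means were removed 0.83, 0.84 and 0.86.

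For Ctsb the most alike were the antiproliferative gene Btg1 (r = 0.79), Sec62 (0.77) and Cyp1b1 (0.76), with 0.61, 0.67 and 0.70 after group means were removed. For Ctsh they were fibronectin, Fn1 (0.78), the complement gene C1qb (0.78) and the lamin gene Lmna (0.77), and with group means removed 0.80, 0.75 and 0.83. Those of Ctsk were Dad1 (0.76), Rpl36al1 (0.72) and the collagen gene Col1a2 (0.72; 0.78, 0.74 and 0.80 once group means were removed). Ctsd by X54467_at was nearest to Apba3 (0.95), Atp9a (0.93) and Vcp (0.93; 0.96, 0.94 and 0.94). Ctsc by D90404_at was nearest to Rnf130 (0.95), Rpa2 (0.92) and Prim1 (0.89; 0.95, 0.89 and 0.83). All are Pearson r over 20 arrays.

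**Figure D4:**
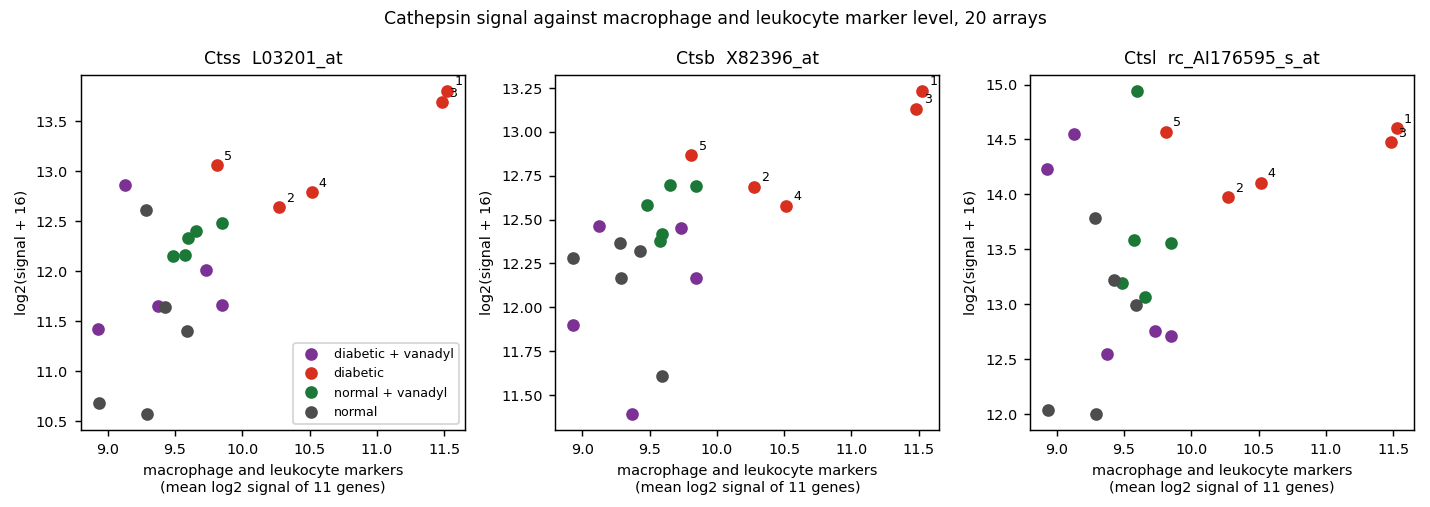
Log2 signal of Ctss, Ctsb and Ctsl (rc_AI176595_s_at) against the mean log2 signal of 11 macrophage and leukocyte markers in each of the 20 arrays, with numbers marking the diabetic replicates. Diabetic replicates 1 and 3 (marker levels 11.52 and 11.48) are at the upper right for Ctss and Ctsb, whereas the highest Ctsl value is that of treated normal replicate 5 (31493).

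Few of the other lysosome genes that could be tested passed between diabetic and normal muscle. Tested were 12 of 24 listed membrane proteins and pump subunits and 11 of 41 listed hydrolases and activators. For delivery to the lysosome and autophagy it was 14 of 25 and 8 of 24 genes. Among lysosomal membrane proteins and proton pump subunits (12 genes tested), the tetraspanin Cd63 rose, averaging 30281 in diabetic and 13947 in normal muscle (log2 difference 1.14 ± 0.26, SE, limma adjusted p = 0.0276), and 11 did not pass. Of all genes tested, 1.34% rose. The chaperone-mediated autophagy receptor Lamp2 had a value of 1.62 (adjusted p = 0.0661) and Lamp1 of 0.51 (adjusted p = 0.320). The list's median was -0.10, beside -0.04 over all genes. Of 11 other lysosomal hydrolases and activators, 0 passed. The fucosidase Fuca1 had a value of 0.94 (adjusted p = 0.135), and the thioesterases Ppt2 and Ppt1 of -1.14 and 0.53 (adjusted p = 0.284 and 0.378), with a median of 0.09. Of 14 genes of delivery to the lysosome 0 passed, and the smallest p-values were those of Vps33a (0.63), Stx7 (-0.58) and Lrpap1 (-0.27), with adjusted p-values from 0.310 to 0.564. Of 8 autophagy genes 0 passed, with Bnip3l at 0.53, Map1lc3a at 0.22 and Foxo1 at 0.18 (adjusted p from 0.322 to 0.780).

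Inhibitors and other cathepsins did not pass either. Of 5 cystatins and related inhibitors 0 passed. Cystatin C, Cst3, the main secreted inhibitor of cysteine cathepsins, had a log2 difference of 0.70 (adjusted p = 0.197), and Cstb, its intracellular relative, of 0.31 (adjusted p = 0.605). Ahsg, a liver glycoprotein of the cystatin superfamily, had a value of -1.59 ± 1.56 (SE, adjusted p = 0.633), while its mean signal was higher in diabetic (2204) than in normal muscle (1250), so mean and log scale differ in sign. Other cathepsins tested were Ctse, an aspartic protease of stomach and immune cells (1.29, adjusted p = 0.285), and Ctsj (0.24, adjusted p = 0.808). Among 15 matrix substrates and matrix proteases 0 passed, with Timp3 at -0.97, Timp1 at 0.79 and Sparc at -0.59 (adjusted p from 0.117 to 0.322). Among 11 fibroblast markers Postn, Pdgfra and Col3a1 had values of 1.60, 0.78 and -1.07 (adjusted p from 0.149 to 0.378), with a median of -0.02. Of the skeletal muscle markers (15 tested, 0 past), Pvalb, Tnnt3 and Chrna1 had values of -0.55, -0.56 and 0.46 (adjusted p from 0.441 to 0.465), and the median was -0.37.

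Class II antigen presentation, the pathway that cathepsin S serves in immune cells, had 1 of 8 genes past the test in diabetic muscle. Of all genes tested, 1.34% rose. RT1-Da, a class II alpha chain, averaged 17446 in diabetic and 7510 in normal muscle (1.14 ± 0.27, SE, limma adjusted p = 0.0378). The invariant chain Cd74, a substrate of cathepsin S, had a value of 1.69 ± 0.53 (adjusted p = 0.106). All its diabetic arrays lay above all normal ones, beside 3.33% of all probe sets. RT1-DMb, which helps load peptides, had a value of 0.81 (adjusted p = 0.208). The list's median was 0.74, beside -0.04 over all genes. In treated against untreated diabetic muscle these 3 genes had values of -0.54, -1.56 and -1.10 (adjusted p = 0.338, 0.172 and 0.122). There 0 of 8 passed the test, and the list's median was -0.70, beside 0.10 over all genes.

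Under vanadyl treatment the other gene lists had 0 members past the test in diabetic rats, apart from the macrophage markers already given, and 0 in normal rats. Cd63 had a value of -0.77 (adjusted p = 0.169) in treated against untreated diabetic muscle and of 0.71 (adjusted p = 0.442) in treated against untreated normal muscle. Lamp2 had values of -0.48 and 1.20 in the same comparisons (adjusted p = 0.613 and 0.473). In the interaction Fcgr2b, the inhibitory Fc receptor, fell (-2.16 ± 0.39, SE, adjusted p = 0.0315), the only listed gene to pass there (0.195% of all genes fell), and Cd63 had a value of -1.48 (adjusted p = 0.117).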

How the data were processed

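Rear-leg muscle RNA was measured on 20 one-colour Affymetrix arrays in 4 groups of 5. The deposited intensities, 1 per probe set per array, are MAS5 signals according to the submitters' processing notes, as made by the authors. The sources used here state no MAS5 version or scaling target. They are linear. Their mean with 2% trimmed from both ends was 2503 to 2506 in every array, so the authors' scaling was kept. The table holds no detection calls. The number of arrays limits the precision.

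Of 8799 probe sets, 59 controls were left out. Probe sets above the array's 40th percentile in at least 5 arrays were tested (6027, 69.0%). Group means of log2(signal + 16) were fitted to all 20 arrays in R 4.3.3 by lmFit and eBayes of limma 3.58.1, giving two-sided p-values adjusted by Benjamini-Hochberg over the 6027 probe sets in each of 6 comparisons, with a threshold of 0.05. A fold change is on the log2(signal + 16) scale and understates changes of low signals. The fit was tested on simulated data. Permutation tests drew 99999 resamples.

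In the platform annotation 7018 probe sets have 1 gene symbol and 308 more than 1, and 1473 are absent. Each of 3582 genes was represented by its brightest tested probe set. For each cathepsin, the 3 genes of highest Pearson r with its brightest probe set over the 20 arrays were named.

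The members and the 11 gene lists were chosen with earlier results of these data known. Named from each list were the 3 genes with the smallest p in diabetic against normal muscle and any past the threshold in a comparison. Alternatives were another pseudocount, filters, quantile normalization, a replicate block, 3'/5' ratios as covariates, fewer arrays or groups, and a trended spread. No genome build is stated for the arrays.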

Additional observations from a re-analysis of the deposited data

Results flagged for a closer look

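An array that stood apart from the other 4 of its group was found in 4 of 40 groups of a cathepsin probe set and condition. The rule was the gap to its nearest neighbour relative to the group's range, both on the log2 scale, while linear signals are given below. Chance gives about 1 in 20. Normal replicate 3 had 3110.9 for Ctsb (X82396_at), below 4591 to 5271 in the other normal arrays, and 318.7 for Ctsc (D90404_at), below 2378 to 3311. Normal replicate 1 had 3873.3 for Ctsl (S85184_g_at), above 1349.8 to 1805. Both arrays have a high Gapdh 3'/5' ratio. Treated normal replicate 5 had 31492.8 for Ctsl (rc_AI176595_s_at), above 8578 to 12251 in the other treated normal arrays, and its Gapdh log2 ratio was -0.0038.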

How the results depend on the processing

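Counts of cathepsin probe sets past the threshold were compared over the alternatives. In diabetic against normal muscle the count of 1 was 0 with both 3'/5' ratios as covariates, with only the compared groups fitted, without diabetic replicates 1 and 3 and with the macrophage marker level as a covariate, the last pair of settings being chosen after seeing the data, and 2 with the 3 high-Gapdh-ratio arrays left out. Without those 3 arrays it was 1 in treated diabetic against diabetic, treated diabetic against normal and treated diabetic against treated normal muscle, each time Ctsc by D90404_at, against 0 with all 20 arrays. With 1 array left out, the count ran from 0 to 2 in diabetic against normal muscle, and from 0 to 1 in treated diabetic against diabetic, in treated diabetic against treated normal muscle and in the interaction. It stayed at 0 in treated normal against normal and in treated diabetic against normal muscle. The causes were not tested. Over all probe sets, the 110 calls in diabetic against normal muscle became 464 with the 3 high-Gapdh-ratio arrays left out, 282 with the Gapdh ratio alone as a covariate, 71 with only the compared groups, 62 with no filter, 32 with both ratios, 3 without diabetic replicates 1 and 3 and 2 with the marker level, and ran from 24 to 247 with 1 array left out. The labels do not say whether equal replicate numbers pair the samples, and the arrays do not settle it. The deviations of same-numbered arrays from their group means correlated above 0.1 in 11 of 30 pairs (range -0.28 to 0.62), and 9 of 30 correlated best with their own number. With the replicate number as a block the count in treated diabetic against treated normal muscle was 1 (Ctsc by D90404_at, -2.19, adjusted p = 0.0495), and the block changed no other cathepsin call. No called difference changed sign, while 64 values of uncalled differences had the other sign than in the report. A larger pseudocount, no filter, the 60th percentile filter, quantile normalization, the Gapdh ratio alone and a trended, robust spread left every cathepsin call in place.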
